A study of Mus musculus with 8 samples.

Results

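The constitutive proteasome and its assembly factors were taken as Pomp and every listed gene named Psma, Psmb, Psmc, Psmd or Psmg with a number, without the inducible or tissue-restricted catalytic subunits Psmb8, Psmb9, Psmb10 and Psmb11. This gave 40 of 55359 genes. By role, 15 encode the core particle (8 alpha and 7 beta subunits), 9 the base (6 ATPases and 3 other subunits), 8 the lid, and 8 the factors that assemble the core (5) or the base (3). Expression was measured by RNA sequencing of sorted thymocytes, double positive for CD4 and CD8 with absent to intermediate surface TCR beta, from mice of 5 weeks. The 4 control samples (replicates 1 to 4) were LSL-Sting1-N153S/+, in which a loxP-flanked stop precedes a STING coding sequence with a gain-of-function substitution, and carried no Cre by their labels. The 4 Lck-cre samples (replicates 5 to 8) were LSL-Sting1-N153S;Lck-cre, with Cre recombinase driven by the T-lineage Lck promoter, so the cassette is shared by both groups and the groups differ in Cre. Replicates 1 and 5 were female, and the other 3 samples of each group were male. The labels do not say whether each sample came from its own animal, so p-values cover the spread between samples, which may be technical.

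The proteasome degrades proteins tagged with ubiquitin. Its core is a barrel of alpha rings, which gate the entry, around beta rings, which hold the proteolytic sites, and a regulatory particle caps the barrel. In that cap the base unfolds substrates by ATP hydrolysis and the lid removes their ubiquitin, while dedicated chaperones build the rings in order. In cells exposed to interferon, and in many lymphoid cells, the catalytic subunits Psmb5, Psmb6 and Psmb7 are partly replaced by Psmb8, Psmb9 and Psmb10, which alters the peptides offered to MHC class I.

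Levels are FPKM (fragments per kilobase of gene, scaled to the fragments mapped in each sample), which put genes of different length on 1 scale. The tables used here hold no read counts, so depth in reads is unknown. They do hold coverage (mean per base, not scaled by depth), so coverage per FPKM rises with depth. Its commonest value in a sample was 7.53 to 7.89 across controls against 7.65 to 7.86 across Lck-cre samples. Sting1, the targeted gene, lay at 15.3, 11.6, 13.4 and 11.9 FPKM in the controls and at 221, 85.4, 129.6 and 232 FPKM in the Lck-cre samples, a 12.8-fold difference of the means without overlap. The FPKM sum of a sample was 413835 to 437426 across controls against 437778 to 457145 across Lck-cre samples, so the groups also differed in this total. The thymocyte genes Cd8a and Rag1 lay at 941 FPKM or more and 436 FPKM or more in the 8 samples. Of 5 myeloid marker genes, 3 (Lyz2, Csf1r and Adgre1) stayed under 1 FPKM in each sample. So did 3 of 5 dendritic cell, 4 of 6 thymic epithelial, 3 of 4 B cell and 4 of 4 erythroid markers. None of these low markers was tested. In Lyz2 (mean 0.163 to 0.56 FPKM), Csf1r (0.00427 to 0.036) and the epithelial Krt8 (0.0642 to 0.2) each Lck-cre sample lay above each control. The other low markers did not separate in this way. The summed FPKM of the myeloid markers lay at 8.44 to 9.05 across controls against 10.5 to 14.9 across Lck-cre samples, and the dendritic ones at 2.08 to 4.03 across controls against 5.07 to 8.61 across Lck-cre samples. Limma, with the same fit as for the proteasome genes, called Cd68 higher among 2 tested myeloid markers (5.74 ± 0.497 to 8.505 ± 1.95 FPKM, adjusted p = 0.0304). It did not call the other, Itgam (2.83 ± 0.366 to 2.77 ± 0.27 FPKM, log2 change -0.03, adjusted p = 0.875). Limma called both tested dendritic markers higher, H2-Aa (0.379 ± 0.109 to 1.55 ± 0.684 FPKM, adjusted p = 0.00801) and H2-Ab1 (2.51 ± 0.687 to 4.43 ± 0.841 FPKM, adjusted p = 0.0107). H2-Aa reached 1 FPKM only in the Lck-cre samples, so it entered the test through the group where it was high. With a filter on mean FPKM only 1 dendritic marker was tested, H2-Ab1. The B cell markers summed to 12.3 to 16.9 across controls against 7.85 to 15.5 across Lck-cre samples, the epithelial ones to 6.75 to 9.25 across controls against 7.08 to 11.4 across Lck-cre samples and the erythroid ones to 0.0241 to 0.123 across controls against 0 to 0.262 across Lck-cre samples. Hba-a1 and Hbb-bs were listed at 0 in the 4 controls, and Ms4a1, Csf1r, Adgre1, Krt5 and Foxn1 lay at 0.0775 FPKM or less in the 8 samples. In bulk RNA, fewer cells of a type and less RNA per cell cannot be told apart. The part of these other cells in the results was not tested.

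The main comparison asked whether proteasome transcripts differed between Lck-cre and control thymocytes. With FPKM and all samples, most core and base genes rose slightly in the Lck-cre samples, and most lid genes did not pass the test. Fewer core and base genes passed with TPM or in males only. The chaperone gene Psmg4 changed most, by 1.56-fold, and the catalytic genes Psmb5 and Psmb7 followed at 1.38-fold and 1.34-fold. Of the 40 genes, 39 had at least 1 FPKM in at least 4 samples and were tested with limma on log2(FPKM + 0.5) with a term for sex, and the exception was the germ cell subunit Psma8. At a Benjamini-Hochberg adjusted p under 0.05 over 12337 genes, 23 of 39 rose and 0 fell, also with 0 lower at an unadjusted p under 0.05. Over all tested genes 15.4% rose and 10.4% fell. The median log2 change was 0.26 over the 39 genes and 0.01 over all tested genes, and 37 of 39 changes were above 0. In 20 of the 39, each Lck-cre sample lay above each control, against 17.1% of all tested genes.

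By role, limma called 5 of 7 tested alpha, 6 of 7 beta, 5 of 6 ATPase and 2 of 3 other base genes higher. It called 3 of 8 lid, 2 of 5 core assembly and 0 of 3 base assembly genes, the last with 1 (Psmd10) at an unadjusted p under 0.05. These counts from few genes are to be read against the 15.4% of all tested genes called higher. Median log2 changes were 0.29 (alpha), 0.31 (beta), 0.24 (ATPases), 0.21 (other base), 0.13 (lid), 0.30 (core assembly) and 0.15 (base assembly). With TPM limma called 7 of 14 tested core, 3 of 9 base, 2 of 8 lid and 1 of 8 assembly genes higher, against 10.5% of all tested genes. In males only these counts were 3, 0, 0 and 1, against 3.44%. The base and lid counts were thus close or equal in those 2 fits. Whether the lid differed from the core or the base in its change was not tested.

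Most proliferation genes were also higher in the Lck-cre samples. Of 10, 9 rose and 0 fell by limma, against 15.4% higher and 10.4% lower over all tested genes. The summed level of the 10 was 809 to 1134 across controls against 1297 to 1724 across Lck-cre samples. Mcm3, a subunit of the replicative helicase, rose from 64.01 ± 8.999 to 121 ± 19.6 FPKM. Of 8 listed thymocyte genes, 3 (Cd4, Rag1 and Rag2) fell and 1 (Ptcra) rose, and Ptcra had the only change above 0. The summed levels of the 8 were 4348 to 4732 across controls against 3267 to 4303 across Lck-cre samples. Over all tested genes 15.4% rose and 10.4% fell. In males only 0 of these 8 were called, against 6 of the 10 proliferation genes called higher and 3.44% of all tested genes called higher. The part of proliferation or stage in the proteasome changes was not tested.

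**Figure D1:**
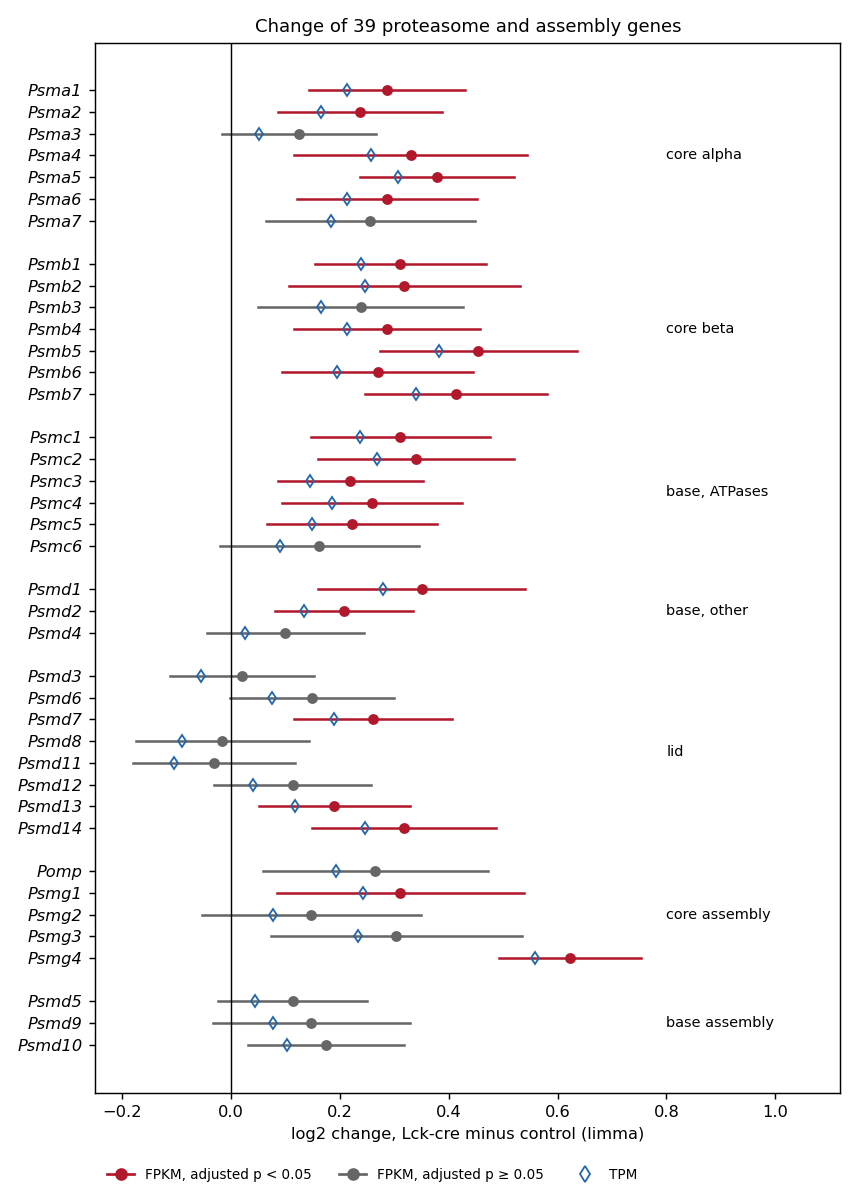
log2 change of each tested gene (x axis, Lck-cre minus control, limma on log2(FPKM + 0.5)) with its 95% confidence interval, by subcomplex, with n = 4 samples a group. Filled circles are FPKM values, red where the adjusted p is under 0.05 (23 of 39 genes), and open diamonds are the same fit on TPM, which lie to the left of the circles. Psmg4 stands at 0.62, while Psmd3, Psmd8 and Psmd11 of the lid lie near 0.

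Scaling and single samples set how many genes passed. With TPM, which fixes each sample's sum, 13 of 39 rose and 0 fell by limma, against 10.5% higher and 16.8% lower over all tested genes (1300 and 2067 genes, where FPKM gave 1901 and 1279). The 10 calls lost with TPM were Psma2, Psma4, Psmb2, Psmb6, Psmc3, Psmc4, Psmc5, Psmd2, Psmd13 and Psmg1. The TPM median was 0.19 over the 39 genes and -0.06 over all tested genes. In males only, 3 against 3 samples, 4 of 39 rose by limma, against 3.44% of all tested genes, with a median of 0.25. With 1 female a group, leaving out either female lets the sex term absorb the other, so those fits have the same estimates as the males-only fit and also gave 4 calls each (3.46% of all tested genes without control 1 and 3.4% without Lck-cre 5). In fits with no sex term, chosen after seeing the data, 10 of 39 rose without control 1 (10.6% of all tested genes) and 17 without Lck-cre 5 (11.2%). Leaving out 1 male gave 5 calls without control 2 (6.9%), 23 without control 3 (15.4%) and 12 without control 4 (10.6%). It gave 25 calls without Lck-cre 6 (18%), 7 without Lck-cre 7 (9.14%) and 15 without Lck-cre 8 (10.6%). Psma5, Psmb5, Psmb7 and Psmg4 were called in each of the fits with 1 sample left out and in males only. With no filter, 5 of 40 were called, against 2.41% of 28851 genes.

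Within groups the samples had their own pattern. Control replicate 3 was the highest control in 25 of 39 genes, and Lck-cre replicate 7 was the highest Lck-cre sample in 25. Controls 1 and 2 were each the lowest control in 16 genes, and Lck-cre replicates 5 and 6 the lowest of their group in 15 and 16. Control 3 and Lck-cre 7 also had the highest FPKM sums of their groups, 437426 and 457145. The share of the FPKM sum taken by the 40 genes, which does not depend on that total, was 0.519% to 0.558% across controls against 0.589% to 0.645% across Lck-cre samples, without overlap.

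**Figure D2:**
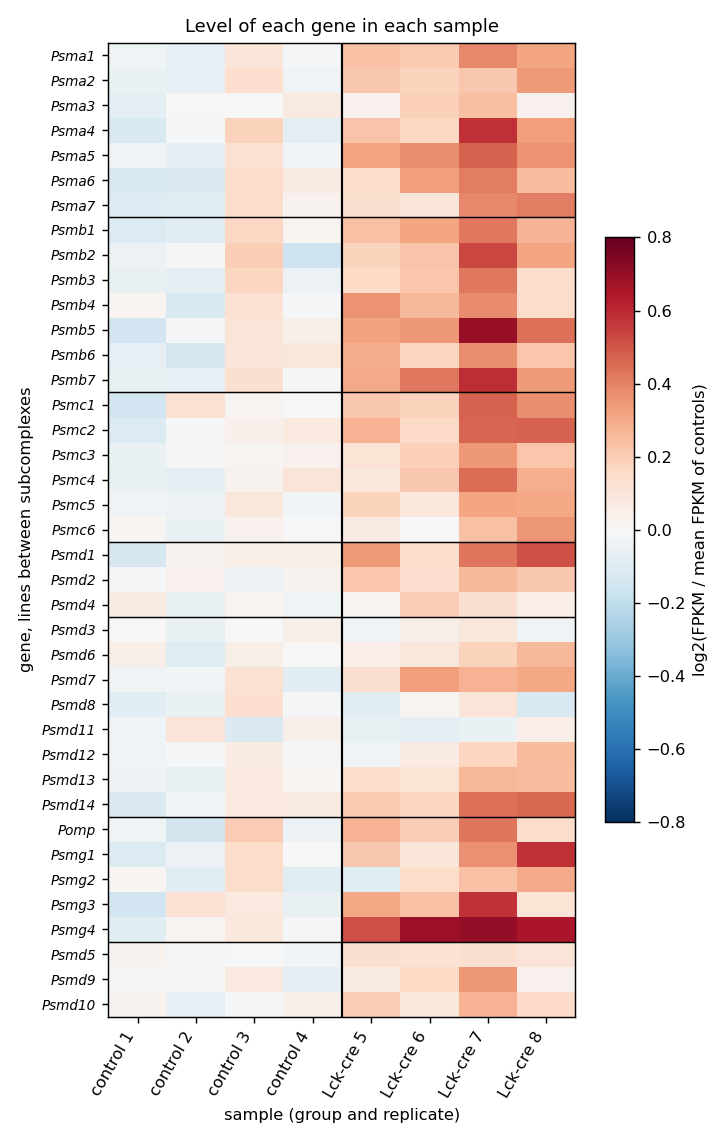
Level of each tested gene in each of the 8 samples, as log2 of its FPKM over the mean of the 4 controls (colour). Columns are samples, rows are genes, and lines part the subcomplexes. Lck-cre replicate 7 is the highest sample of its group in 25 of 39 genes, and the Psmg4 row stands out.

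Promoter sequence was read for genes that the results turn on, from RefSeq windows of GRCm38.p6 that cover 32 of the 40 genes by symbol (all but Psma8, Psmb1, Psmb2, Psmb7, Psmc3, Psmd3, Psmd7 and Psmg2). The 250 bases before each start were searched on both strands for TGACNNNGC, the core of the antioxidant response element bound by Nfe2l1 and Nfe2l2, for CCAAT, bound by NF-Y, and for CACGTG, the E-box. The last reads the same on both strands and was counted once, and a gene with several starts counted as a match if any window matched. Printed here, 5′ to 3′ on the gene's strand with matches in capitals, are Psmg4 (the largest change, chr13:34162714-34162963 (plus strand)), Psmb5 and Psmb6 (catalytic genes with a match, chr14:54617996-54618245 (minus strand) and chr11:70525107-70525356 (plus strand)), and Psmd8 (a lid gene near 0, chr7:29180674-29180923 (minus strand)).
Psmg4: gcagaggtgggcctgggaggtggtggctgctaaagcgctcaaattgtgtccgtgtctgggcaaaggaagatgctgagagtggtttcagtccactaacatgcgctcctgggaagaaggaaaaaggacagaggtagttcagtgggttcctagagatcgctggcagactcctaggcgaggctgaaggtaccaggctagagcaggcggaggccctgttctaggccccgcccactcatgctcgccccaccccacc
Psmb5: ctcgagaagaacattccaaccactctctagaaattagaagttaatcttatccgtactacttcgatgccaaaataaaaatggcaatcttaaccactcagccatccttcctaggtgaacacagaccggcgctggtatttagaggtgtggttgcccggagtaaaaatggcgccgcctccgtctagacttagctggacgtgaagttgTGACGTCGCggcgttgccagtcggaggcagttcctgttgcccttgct
Psmb6: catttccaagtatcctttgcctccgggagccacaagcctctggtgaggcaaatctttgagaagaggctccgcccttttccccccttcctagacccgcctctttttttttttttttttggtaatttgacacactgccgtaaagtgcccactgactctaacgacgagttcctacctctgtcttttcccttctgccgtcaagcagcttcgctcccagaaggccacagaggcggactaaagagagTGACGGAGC
Psmd8: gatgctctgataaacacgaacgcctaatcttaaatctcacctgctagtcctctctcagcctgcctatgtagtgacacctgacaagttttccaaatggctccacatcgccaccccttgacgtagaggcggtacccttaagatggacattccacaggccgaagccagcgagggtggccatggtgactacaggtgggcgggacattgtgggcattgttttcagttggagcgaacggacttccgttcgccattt

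TGACNNNGC occurred in 5 of 32 genes, or 15.6%, against 13.7% of 8394 tested genes with a window. These were Psmb5 (47 to 39 bases before the start), Psmb6 (9 to 1), Psmd9 (31 to 23), Psmc6 (227 to 219) and Psmd12 (247 to 239), of which limma called Psmb5 and Psmb6 higher. CCAAT occurred in 11 of 32 (34.4%, against 41.3%), in 6 of 18 called genes and in 5 of 14 not called. TGACNNNGC was in 2 of those 18 and 3 of those 14. Whether either pattern went with the calls was not tested. CACGTG occurred in Psma4 and Psmd9 (6.25%, against 10.5%). The windows of Psmg4 and Psmd8, the largest change and a change near 0, held none of these 3 letter patterns. A match is a description of letters, not a binding site.

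The beta subunits carry the proteolytic sites. Psmb5, the chymotrypsin-like site, lay at 73.4, 81.2, 87.7 and 84.5 FPKM in the controls and at 102, 104, 133 and 111 FPKM in the Lck-cre samples. Each Lck-cre sample exceeded each control, with replicate 7 the highest, and the log2 change was 0.45 by limma (95% confidence interval 0.27 to 0.64, adjusted p = 0.0093, SE 0.08). Psmb7, the trypsin-like site, lay at 82.3, 81.7, 93.7 and 85.1 FPKM in the controls and at 106, 115, 129 and 109 FPKM in the Lck-cre samples, again without overlap, a log2 change of 0.41 (SE 0.07, adjusted p = 0.00947 by limma). Psmb6, the caspase-like site, lay at 109.8, 105, 123 and 122 FPKM in the controls and at 142, 129.8, 149 and 134 FPKM in the Lck-cre samples. These groups did not overlap either, but the change was smaller (0.27, SE 0.08, adjusted p = 0.0341 by limma), and missed the threshold with TPM (adjusted p = 0.0704 by limma). Psmb5 and Psmb7 passed with TPM (adjusted p of 0.0121 and 0.0117 by limma). The files list Psmb5 on chromosome 14 from 54851576 to 54855479 on the minus strand, Psmb6 on chromosome 11 from 70416193 to 70418684 on the plus strand and Psmb7 on chromosome 2 from 38478048 to 38534099 on the minus strand, in a build they do not name.

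The noncatalytic beta subunits complete the ring. Psmb2 lay at 57.9, 59.6, 68.7 and 53.5 FPKM in the controls and at 67.9, 70.3, 86.8 and 74.5 FPKM in the Lck-cre samples. Control 3 lay above Lck-cre 5, so the groups overlapped by 1 sample each, and the gene passed limma with the largest adjusted p of the called beta genes (0.0372, log2 change 0.32). Psmb3 lay at 123, 122, 145 and 125 FPKM in the controls and at 144, 149.6, 172 and 142 FPKM in the Lck-cre samples. Control 3 exceeded Lck-cre 5 and 8 there, and limma did not call Psmb3 (log2 change 0.24, 95% confidence interval 0.05 to 0.43, adjusted p = 0.0626). Psmb1 rose from 55.5 ± 4.97 to 68.8 ± 3.91 FPKM and Psmb4 from 106 ± 7.100 to 129 ± 9.47 FPKM (SD, n = 4 each), both without overlap.

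The alpha subunits form the outer rings and the gate. Psma5 lay at 43.8, 42.4, 48.5 and 43.9 FPKM in the controls and at 55.5, 57.8, 61.9 and 57.4 FPKM in the Lck-cre samples, with no overlap and a log2 change of 0.38 (SE 0.06, adjusted p = 0.00817 by limma). The pseudogene Psma5-ps, whose reads may be shared with Psma5, lay at 7.103, 6.44, 7.28 and 6.09 FPKM against 8.39, 8.21, 9.198 and 9.62 FPKM in the same order of groups, so the split of reads between the pair is uncertain. Psma4 lay at 41.2, 44.7, 51.02 and 42.7 FPKM in the controls and at 52.7, 50.4, 67.2 and 56.6 FPKM in the Lck-cre samples, where control 3 exceeded Lck-cre 6 and limma gave an adjusted p of 0.0342. Psma1 rose from 67.2 ± 3.33 to 82.04 ± 4.57 FPKM, Psma2 from 26.9 ± 1.77 to 31.8 ± 1.54 FPKM and Psma6 from 128 ± 12.3 to 156 ± 12.2 FPKM (SD, n = 4 each). Psma6 overlapped narrowly, since control 3 lay at 142 FPKM and Lck-cre 5 at 141 FPKM.

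Psma3 and Psma7 did not pass. Psma3, whose tail helps to close the gate, lay at 64.3, 67.5, 67.3 and 70.9 FPKM in the controls and at 69.1, 77.01, 79.7 and 69.00 FPKM in the Lck-cre samples, with the Lck-cre replicates 5 and 8 within the control range (95% confidence interval of the log2 change -0.02 to 0.27, adjusted p = 0.163 by limma). Psma7 lay at 55.6, 56.4, 66.2 and 61.1 FPKM in the controls and at 65.3, 63.9, 78.04 and 79.6 FPKM in the Lck-cre samples. Its change of 0.26 was near that of Psma6 (0.29), with a wider interval of 0.06 to 0.45 and an adjusted p of 0.0534 by limma. Psma8, which replaces Psma7 in germ cells, lay at 0.0533, 0.135, 0.07898 and 0.193 FPKM against 0.0424, 0.172, 0.118 and 0.0748 FPKM in the same order of groups and was not tested.

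The base ATPases form the ring that unfolds substrates and threads them into the core. Psmc2 lay at 28.4, 30.3, 31.6 and 32.4 FPKM in the controls and at 37.2, 34.2, 42.4 and 42.5 FPKM in the Lck-cre samples, without overlap (log2 change 0.34, SE 0.08, adjusted p = 0.0178 by limma). Psmc5 lay at 58.4, 57.7, 63.3 and 58.8 FPKM in the controls and at 67.5, 63.2, 74.1 and 73.8 FPKM in the Lck-cre samples. Control 3 and Lck-cre 6 were nearly level there, and limma's adjusted p was 0.0444, or 0.112 with TPM. Psmc1 rose from 79.5 ± 6.103 to 98.8 ± 9.27 FPKM, Psmc3 from 111 ± 2.95 to 129.95 ± 8.93 FPKM and Psmc4 from 95.5 ± 5.43 to 115 ± 12.05 FPKM (SD, n = 4 each). Psmc6 lay at 34.6, 32.98, 34.96 and 34.3 FPKM in the controls and at 35.8, 34.3, 40.3 and 43.7 FPKM in the Lck-cre samples. Lck-cre 6 lay within the control range, and limma did not call Psmc6 (95% confidence interval -0.02 to 0.34, adjusted p = 0.16).

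The other base subunits are the scaffolds Psmd1 and Psmd2, on which ubiquitin-binding partners dock, and Psmd4, a ubiquitin receptor at the junction with the lid. Psmd1 lay at 22.6, 25.4, 25.7 and 25.7 FPKM in the controls and at 31.4, 27.4, 33.3 and 35.4 FPKM in the Lck-cre samples, with no overlap and control 1 the lowest (log2 change 0.35, SE 0.08, adjusted p = 0.0194 by limma). Psmd2 lay at 82.00, 85.1, 80.4 and 84.5 FPKM in the controls and at 96.8, 91.3, 99.4 and 96.4 FPKM in the Lck-cre samples, also without overlap (log2 change 0.21, adjusted p = 0.0279 by limma, 0.125 with TPM). Psmd4 lay at 117, 108, 114 and 109.7 FPKM in the controls and at 113, 129, 123 and 117 FPKM in the Lck-cre samples. Control 1 exceeded Lck-cre 5 and 8, and the interval of the log2 change was -0.04 to 0.24 (adjusted p = 0.265 by limma).

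The lid carries the deubiquitinase Psmd14 and its partner Psmd7, held in place by scaffold subunits. Psmd14 lay at 40.2, 42.6, 46.1 and 45.6 FPKM in the controls and at 50.4, 49.1, 59.2 and 59.97 FPKM in the Lck-cre samples, without overlap (log2 change 0.32, SE 0.08, adjusted p = 0.0182 by limma). Psmd7 rose from 32.8 ± 2.01 to 39.3 ± 2.45 FPKM (SD, n = 4 each, adjusted p = 0.0213 by limma), again without overlap, and both genes also passed with TPM (0.0362 and 0.0455). Of the scaffold subunits, Psmd13 was the 1 that passed. It lay at 47.7, 47.1, 51.9 and 49.6 FPKM in the controls and at 54.2, 52.9, 58.9 and 58.2 FPKM in the Lck-cre samples, with an adjusted p of 0.0487 by limma and 0.151 with TPM, and it overlaps Gm15542 on the same strand, at a mean of 20.98 FPKM, so its share of reads is uncertain. Psma2 and Psmc5 also overlap a listed gene on their own strand, AW209491 and Gm23645, at 2.46 and 1.26 FPKM. On the opposite strand Psma3, Psmc3 and Psmd13 overlap 3110056K07Rik, Slc39a13 and Sirt3, whose reads cannot be told apart if counting ignored strand.

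The other 5 lid scaffolds were not called. Psmd3 lay at 114, 109, 114 and 118 FPKM in the controls and at 111, 118, 122 and 112 FPKM in the Lck-cre samples. Psmd8 lay at 101, 103, 117 and 106 FPKM in the controls and at 101, 108, 114 and 98.1 FPKM in the Lck-cre samples, and Psmd11 at 34.9, 38.4, 33.1 and 36.9 FPKM against 34.3, 33.96, 34.6 and 37.2 FPKM. In each of these 3 the groups overlapped broadly, with intervals of the log2 change of -0.11 to 0.15, -0.18 to 0.14 and -0.18 to 0.12. With FPKM their changes were 0.02, -0.02 and -0.03, and with TPM -0.05, -0.09 and -0.11, so the sign of Psmd3 turned with the scaling. Psmd12 lay at 32.6, 33.1, 34.8 and 33.2 FPKM in the controls and at 32.7, 34.9, 37.7 and 39.8 FPKM in the Lck-cre samples, and Psmd6 at 44.2, 40.03, 44.1 and 42.6 FPKM against 44.4, 45.6, 48.7 and 51.1 FPKM. Psmd6 did not overlap between groups, with control 1 just under Lck-cre 5, and had an adjusted p of 0.126 by limma, against 0.209 for Psmd12.

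Summed over each subcomplex, the core lay at 1018 to 1171 across controls against 1256 to 1458 across Lck-cre samples (FPKM), and the base at 614 to 641 across controls against 696 to 794 across Lck-cre samples. The lid lay at 446 to 477 across controls against 464 to 515 across Lck-cre samples, with overlap. The lid sum over the core sum was 0.407 to 0.438 across controls against 0.353 to 0.386 across Lck-cre samples, which did not overlap and does not depend on the scaling of a sample. The base over the core lay at 0.548 to 0.617 across controls against 0.545 to 0.589 across Lck-cre samples, and the assembly factors over the core at 0.126 to 0.133 across controls against 0.126 to 0.1297 across Lck-cre samples, both with overlap. These sums weigh abundant subunits most and were not tested.

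**Figure D3:**
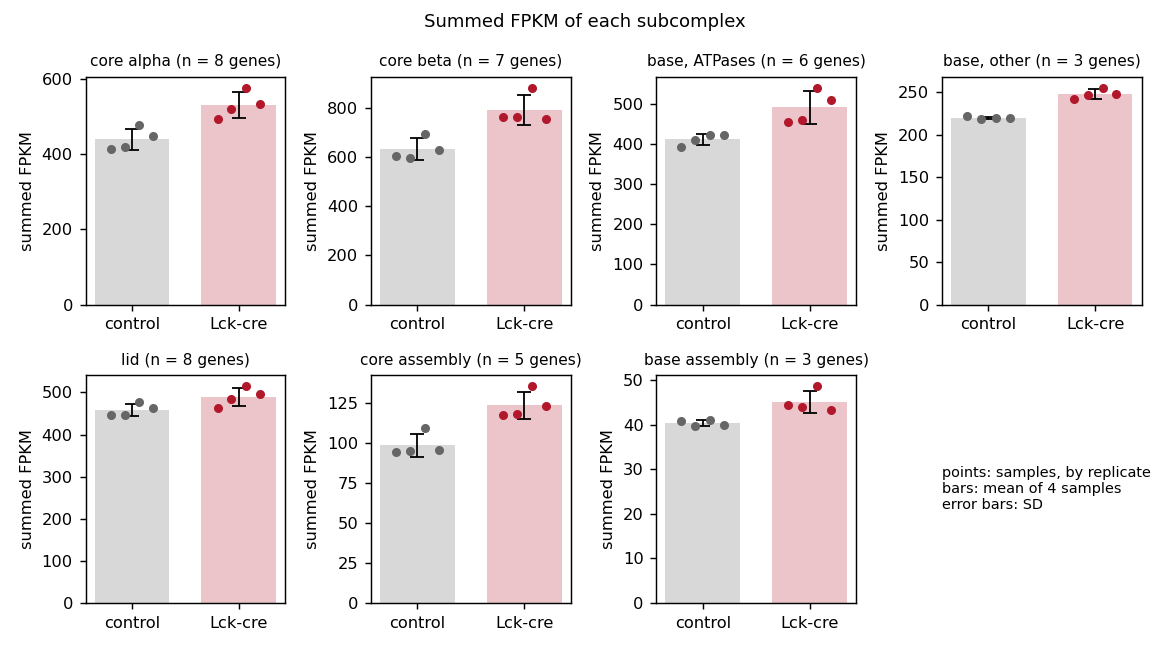
Summed FPKM of the genes of each subcomplex (y axis, from 0) in the control and Lck-cre samples. Points are samples, bars are means and error bars are SDs over n = 4 samples. The lid sums overlap between groups (446 to 477 across controls against 464 to 515 across Lck-cre samples), and the other panels do not overlap.

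Over the 8 samples, the genes with a mean of at least 1 FPKM ran from Psma6 at 142 FPKM and Psmb3 at 140.2 FPKM, which do not differ beyond their spread, down to Psmd5 at 9.81 FPKM. The assembly factors other than Pomp lay between 9.81 and 19.3 FPKM (Psmg3) on average, under each tested subunit of the particle, of which Psmd1 was lowest at 28.4. Pomp, which guides beta ring assembly, lay at 39.8. Although each core subunit is present in equal number in the particle, mean FPKM within the core ran from 29.4 (Psma2) to 142 (Psma6).

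Psmg4 pairs with Psmg3 to help build the alpha ring. Psmg4 lay at 12.6, 13.6, 14.2 and 13.3 FPKM in the controls and at 19.2, 21.6, 21.9 and 21.1 FPKM in the Lck-cre samples. The lowest Lck-cre sample was well above the highest control, and limma gave a change of 0.62 on the log2 scale (95% confidence interval 0.49 to 0.75, adjusted p = 0.00411, SE 0.06). It passed in every setting run, including a test against a fold of 1.2. The files list it on chromosome 13 from 34346947 to 34362156 on the plus strand. Its partner Psmg3 lay at 15.5, 18.6, 18.1 and 16.5 FPKM in the controls and at 21.3, 20.2, 25.6 and 18.6 FPKM in the Lck-cre samples. Lck-cre 8 lay within the control range, and limma did not call Psmg3 (log2 change 0.30, 95% confidence interval 0.07 to 0.53, adjusted p = 0.0558), although it passed without Lck-cre 8.

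The other chaperone pair acts at the same step. Psmg1 lay at 15.1, 15.8, 18.04 and 16.2 FPKM in the controls and at 18.9, 17.4, 21.02 and 24.4 FPKM in the Lck-cre samples, with control 3 above Lck-cre 6 and an adjusted p of 0.0493 by limma, or 0.0933 with TPM. Psmg2 lay at 15.9, 14.9, 17.5 and 14.7 FPKM in the controls and at 14.7, 17.5, 18.6 and 19.4 FPKM in the Lck-cre samples. Lck-cre 5 was among the lowest samples for Psmg2, and limma gave an interval of -0.05 to 0.35 and an adjusted p of 0.239. Pomp lay at 35.2, 32.6, 41.6 and 35.00 FPKM in the controls and at 43.7, 41.4, 48.6 and 39.9 FPKM in the Lck-cre samples, where control 3 exceeded Lck-cre 6 and 8 (log2 change 0.26, adjusted p = 0.0608 by limma, 95% confidence interval 0.06 to 0.47).

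The base chaperones each bind an ATPase before the base joins the core. Psmd5 lay at 9.59, 9.35, 9.42 and 9.25 FPKM in the controls and at 10.3, 10.2, 10.3 and 10.1 FPKM in the Lck-cre samples. Psmd10, also known as gankyrin, lay at 17.9, 16.7, 17.4 and 17.98 FPKM in the controls and at 20.1, 18.6, 21.2 and 19.4 FPKM in the Lck-cre samples. Neither overlapped between groups, yet with limma's moderated spread their adjusted p were 0.19 and 0.0714, for log2 changes of 0.11 and 0.17. Psmd9 lay at 13.4, 13.6, 14.2 and 12.8 FPKM in the controls and at 14.1, 15.1, 17.2 and 13.8 FPKM in the Lck-cre samples, with overlap and an adjusted p of 0.196 by limma.

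A second comparison set each constitutive catalytic subunit against the inducible one that takes its place, as a log2 ratio of FPKM within a sample. Psmb8 over Psmb5 lay at 1.26, 0.92, 1.01 and 0.77 in the controls and at 0.91, 0.75, 0.58 and 0.72 in the Lck-cre samples, so Psmb8 was the more abundant in each sample. The mean ratio was 0.99 ± 0.20 and 0.74 ± 0.14 (SD, n = 4 each), a difference of -0.25 with p = 0.0571 in the exact two-sided permutation test, or 0.171 adjusted over the 3 pairs. Psmb9 over Psmb6 lay at -1.66, -1.91, -1.74 and -2.05 against -1.55, -1.75, -1.75 and -1.50, a difference of 0.21 (exact permutation p = 0.171, adjusted 0.257). Psmb10 over Psmb7 lay at -1.27, -1.47, -1.50 and -1.33 against -1.04, -1.58, -1.40 and -1.19, a difference of 0.09 (exact permutation p = 0.543). In those 2 pairs the constitutive gene was the more abundant in each sample. The groups overlapped in all 3 pairs, and the smallest p that 4 against 4 samples allow is 0.0286. This test has no term for sex. Among males, Psmb8 over Psmb5 did not overlap (0.77 to 1.01 against 0.58 to 0.75, a difference of -0.22), where 3 against 3 samples cannot reach an exact permutation p under 0.05, and the females lay at 1.26 and 0.91. The other 2 pairs overlapped among males.

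**Figure D4:**
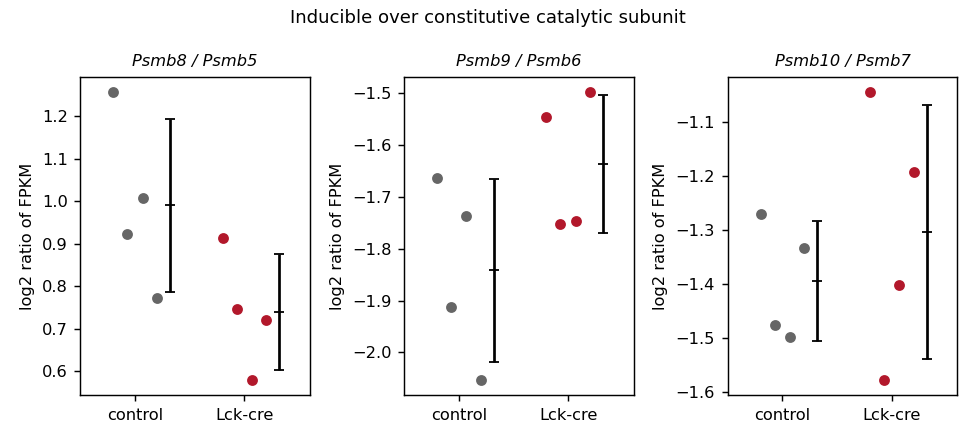
log2 ratio of FPKM of each inducible catalytic subunit over its constitutive counterpart (y axes differ between panels and do not start at 0). Points are the 4 samples of each group, and black marks are the mean and SD. With both sexes plotted, the groups overlap in each panel, and Psmb8 over Psmb5 runs from 0.58 to 1.26 over the 8 samples.

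Taken singly, Psmb9 rose from 32.2 ± 4.29 to 44.7 ± 4.48 FPKM and Psmb10 from 32.6 ± 2.18 to 46.5 ± 5.61 FPKM (SD, n = 4 each). Limma called both higher (adjusted p of 0.0137 and 0.00932), as it did 15.4% of all tested genes. Psmb8 lay at 163 ± 16.1 and 187 ± 10.4 FPKM (SD, n = 4 each, adjusted p = 0.0839 by limma). Psmb11, found in cortical thymic epithelium, lay at 0.0249 to 0.195 FPKM in the 8 samples. In males only limma called Psmb10 (adjusted p = 0.0469) and did not call Psmb9 (adjusted p = 0.0576), against 3.44% of all tested genes called higher. Psmb9 was called with either female left out and no sex term.

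Among other genes of the pathway, 2 of 6 activators and inhibitors rose by limma and 0 fell, with 0 lower at an unadjusted p under 0.05. These were both subunits of the cap that opens the core without ubiquitin, Psme2 (44.2 ± 1.81 to 65.8 ± 8.898 FPKM) and Psme1 (94.3 ± 5.79 to 113 ± 4.75 FPKM). Of 9 further subunits and associated factors, 4 rose and 0 fell by limma, and 0 were lower at an unadjusted p under 0.05. The one with the smallest p was Txnl1, a thioredoxin-like protein bound to the cap (13.6 ± 1.63 to 18.5 ± 1.37 FPKM, adjusted p = 0.0102 by limma), and the deubiquitinase Uchl5 was another (18.6 ± 1.55 to 27.4 ± 3.68 FPKM). Of 10 shuttle receptors and factors that extract substrates, 2 rose, among them Rad23b, which carries ubiquitinated proteins to the proteasome (36.2 ± 2.64 to 45.3 ± 2.58 FPKM). The shares of these small lists are to be read against the 15.4% of all tested genes that rose. In males only 1 of the activators, 0 of the further subunits and 0 of the shuttle receptors were called, against 3.44% of all tested genes.

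Transcription factors of proteasome genes gave 0 calls of 7 by limma with FPKM, where 1 was higher and 2 lower at an unadjusted p under 0.05, and with TPM 2 fell, against 16.8% of all tested genes. These were Nfya, a subunit of NF-Y (log2 change with TPM -0.28, adjusted p = 0.0314 by limma), and the forkhead factor Foxo4 (-0.26, adjusted p = 0.0256 by limma). Nfe2l1, which induces proteasome genes when degradation is impaired, lay at 21.6, 22.5, 20.5 and 19.9 FPKM in the controls and at 20.1, 18.9, 20.1 and 19.8 FPKM in the Lck-cre samples. The groups overlapped, and the interval of the log2 change was -0.24 to 0.05 (adjusted p = 0.275 by limma). Nfe2l2, the factor of oxidative stress, lay at 20.8, 19.6, 23.2 and 21.1 FPKM in the controls and at 22.5, 20.7, 22.8 and 26.1 FPKM in the Lck-cre samples, also with overlap (adjusted p = 0.336 by limma, 95% confidence interval -0.08 to 0.31).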

How the data were processed

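RNA of 8 sorted thymocyte samples was sequenced. The submitters' processing notes name HISAT and Bowtie2, without version or role, and the quantifier, build, annotation and strandedness are not stated in what was used here. Per the file headers, the authors deposited an FPKM, a TPM and a coverage value (mean per base, a signal not scaled by depth) for each gene and sample. Entries that share a gene ID were summed. These tables carry no counts, so a count model was not run.

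The test was limma 3.58.1 (R 4.3.3), on log2(FPKM + 0.5), of genes that reached 1 FPKM in 4 or more samples. Its terms were genotype and sex, its prior was trended (4.17 degrees of freedom), and two-sided p-values were adjusted by Benjamini-Hochberg over 12337 genes. The fit was checked on simulated data. SciPy 1.17.1 served the other tests. Ratios within samples were compared by exact permutation over 70 assignments. Folds are ratios of mean FPKM.

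The genes, roles, lists and tests were chosen with earlier results of these data known. Every gene of the rule was named. Values per sample were given for the catalytic subunits, Psma8, and, in each role, the called genes with the smallest and the largest adjusted p and those not called. Of the other lists (85 entries in 13 lists, of which Paaf1 was not found), the called gene with the smallest p was named, and the list of ubiquitin genes is not reported here. Uchl5, Nfya, Foxo4, H2-Ab1, Cd4, Rag1, Rag2, Ptcra, Cd8a, the markers at low levels and the pseudogene were named after their values were seen. Motifs were searched in RefSeq promoter windows of GRCm38.p6. For 29 of the 32 genes with a window, its last 20 bases were in a GENCODE M21 transcript of the gene on the same strand. Alternatives were TPM, quantile and median-of-ratios scaling, pseudocounts of 0.1 and 1, other filters, a fit lacking sex, a fit of the males, leaving out each sample, a threshold of 0.01 and a test against a 1.2-fold change.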

Additional observations from a re-analysis of the deposited data

Results flagged for a closer look

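In 110 sets of 4 samples that were checked, 2 held a sample far from the other 3, by Dixon's test at the 95% level. The sets were proteasome genes, some of the other named genes and each catalytic ratio, in each group. Not every gene named here was checked. Chance alone gives about 1 such set in 20. Psmd1 lay at 22.6 FPKM in control replicate 1, against 25.4 to 25.7 FPKM in the other controls. Psmb3 lay at 145 FPKM in control replicate 3, against 122 to 125 FPKM in the other controls. Without control replicate 1 limma called Psmd1 in a fit with no sex term and did not in the fit with it, which equals that of the males only. Without control replicate 3 it called Psmb3, which did not pass with all samples.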

How the results depend on the processing

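The number of the 39 proteasome genes that limma called higher, 23 with FPKM and all samples, was 13 with TPM, 5 with no filter, 4 in males only, 4 at an adjusted p under 0.01, 1 against a fold of at least 1.2, and 4 to 25 when 1 sample was left out. In fits chosen after seeing the data, with no sex term, it was 10 without control replicate 1 and 17 without Lck-cre replicate 5. It was 20 with median-of-ratios scaling, 18 with quantile normalization, 25 with no sex term and 23 with the other pseudocounts or a filter on the mean. Of all 12337 tested genes, 18 were called higher against a fold of at least 1.2. That count was 1690 with median-of-ratios scaling, 1709 with quantile normalization and 2011 with no sex term. It was 1890 and 1910 with pseudocounts of 0.1 and 1, and 1895 of 12297 with the filter on the mean. The count of all tested genes at an adjusted p under 0.01 is not given here. No proteasome gene was called lower in any of these fits, and 36 to 38 of their changes were above 0, with a median of 0.19 to 0.29. The change of Psmd3 (0.02) was -0.0546 with TPM, -0.00268 with median-of-ratios scaling, -0.00291 with quantile normalization and -0.00385 to 0.0397 when 1 sample was left out. The change of Psmd8 (-0.02) was -0.0502 to 0.0271 (0.00479 with no sex term and without Lck-cre replicate 5) and that of Psmd11 (-0.03) was -0.0749 to 0.00054 when 1 sample was left out. The cause of these shifts was not tested. The 3 catalytic ratios kept their direction in every setting run, including coverage in place of FPKM. When 1 sample was left out, the differences were -0.32 to -0.16, 0.14 to 0.27 and 0.0035 to 0.18. The p-values of the ratios with 1 sample left out are not given here. No paired analysis was possible because the groups share no replicate numbers. Without counts, the precision that depth gives to each value is unknown.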
